A study of Mus musculus with 219 samples.

Results

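The cytosolic ribosomal proteins were followed as mRNAs in the left prefrontal cortex of mice. The members were the protein-coding genes of GENCODE mouse release 21 whose symbols name a large (Rpl) or small (Rps) subunit protein, with Rplp0, Rplp1, Rplp2 and Rpsa. The symbol rule found 82 members among 55487 gene identifiers, 51 of the large subunit and 31 of the small subunit. At ZT6 (the time on the labels, 6 h after lights on in a light cycle) 79 of them passed the filter on low counts. Rpl10l, Rpl3l and Rpl39l, paralogues best known from testis or muscle, did not. In the atlas described next, 78 passed, and Rpl24 was also left out.

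The cytosolic ribosome translates the mRNAs of the nucleus. Its proteins are made in proportion to one another, and many of them are joined to ribosomal RNA in the nucleolus. Ribosomal protein mRNAs are abundant, short, and present in all cell types of the brain. Most begin with a cytosine followed by a run of pyrimidines, the 5′ terminal oligopyrimidine (TOP) tract, through which the growth-regulating kinase mTOR and the RNA-binding protein Larp1 control their translation and stability as a group.

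The series measured total RNA by sequencing after ribosomal RNA depletion. A daily atlas held 92 wild-type libraries (WT/WT, Snord116+/+ Ctg-/-) from home-caged mice of about 12 weeks on a 12:12 cycle of light and dark, at 8 times and in both sexes, with 6 libraries per sex and time and 5 at ZT18 and ZT21. A second table held 126 libraries from mice collected at ZT6. Those mice were moved to light-controlled incubators at about 8 weeks, acclimated for 7 days and entrained for 22 days at 22 °C to 12:12 or to 11:11, the equal hours of light and dark that each name gives. A calorimetry set had been in indirect calorimetry chambers (CLAMS) and was collected in constant darkness (D:D). A running wheel set (RW) was collected in its light cycle (L:D). For the calorimetry set ZT6 is the time that the labels give, as no lights came on in constant darkness. Whether ZT6 was the same clock phase on 11:11 and 12:12 was not tested. Set, sex, light cycle and genotype together gave 32 groups of 4 libraries, with 3 in 2 of the WT/TG male groups. The genotypes were WT/WT, HET/WT (Snord116+/- Ctg-/-, heterozygous for the deletion of the Snord116 small nucleolar RNA cluster), WT/TG (Snord116+/+ Ctg+/-, carrying a transgene that the labels call Ctg) and HET/TG (Snord116+/- Ctg+/-). The labels give neither the promoter of the transgene nor the strain. The labels number the libraries as biological replicates.

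Total counts per library, in units of 1e6, were 13 to 18.4 in the atlas and 12.7 to 29.9 at ZT6. Snhg14, the host transcript of Snord116, was at 20.8 to 54.3 CPM (counts scaled to 1e6 per library) in 31 HET/WT libraries, 20.2 to 69.3 in 32 HET/TG libraries and 115.9 to 280.6 in the 62 libraries without the deletion. The remaining library labelled HET/WT, a running wheel female on 11:11, was at 167.3, against its label. Another running wheel female on 11:11, labelled WT/TG, gave 45.5% of its counts to ribosomal RNA and genes that collect ribosomal RNA reads. The summed level of 7 neuronal markers was 4314 to 6642 CPM over all libraries of both tables, and that of 5 choroid plexus markers ran from 2.23 to 2685 CPM. In the submitted library names the calorimetry females, calorimetry males, running wheel females and running wheel males each carry their own prefix, and so do the sexes of the atlas. Differences between sets or sexes and differences in how those libraries were handled cannot be told apart.

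Rpl41 has the shortest coding sequence of the members and shows how small the mRNAs counted here can be. It lies at chr10:128548114-128549305 (mm10, minus strand), and its coding sequence from the GENCODE transcript is printed with the start and stop codons in capitals.

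Rpl41 coding sequence: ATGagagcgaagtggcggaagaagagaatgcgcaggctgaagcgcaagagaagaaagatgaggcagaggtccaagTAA

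The tested members had a median principal transcript of 681 bases, from 271 in Rps28 to 3706 in Rps20. Principal transcripts were taken from the annotation, and the lengths of the mRNAs counted were not measured. The other protein-coding genes tested had a median of 2859 bases. Coding lengths of the members ran from 75 to 1257 bases without the stop codon.

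The starts of 62 of the 82 members could be read from the RefSeq promoter sequences (GRCm38.p6), in 74 entries. The windows that follow hold the 15 bases before and the 15 bases from the annotated start, on the strand of the gene, with the longest run of C or T in capitals. They are shown because the members that differed most in the comparisons are among them, and because the run of pyrimidines is the feature these mRNAs are known for.

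Rpl35 (chr2:39005117-39005146, minus strand): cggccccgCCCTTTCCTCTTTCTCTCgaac
Rpl34 (chr3:130730323-130730352, minus strand): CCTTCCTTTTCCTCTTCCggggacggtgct
Rpl38 (chr11:114668565-114668594, plus strand): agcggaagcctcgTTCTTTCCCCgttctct
Rpl22l1 (chr3:28805493-28805522, plus strand): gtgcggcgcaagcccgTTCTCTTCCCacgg
Rps26 (chr10:128626492-128626521, minus strand): gtcgggcaagccgccggaTCCTCTTTCgag
Rps12 (chr10:23787195-23787224, minus strand): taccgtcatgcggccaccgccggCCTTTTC
Rpl9 (chr5:65391417-65391446, minus strand): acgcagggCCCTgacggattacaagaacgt
Rps28 (chr17:33824548-33824577, minus strand): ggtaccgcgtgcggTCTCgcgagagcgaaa
Rpl7l1 (chr17:46782642-46782671, minus strand): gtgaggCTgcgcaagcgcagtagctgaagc

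A run of at least 8 letters that were all C or T, within 20 bases on either side of the annotated start and on the strand of the gene, was found in 31 of the 74 member entries (41.9%). Over all 32851 promoter entries of the same length the share was 16%. A run of at least 5 such letters that covered the annotated start itself was found in 27% of member entries and 10.1% of all. Among the windows printed, Rpl35 and Rpl34 have runs of 18 letters and Rpl9 has a run of 4. The starts are as annotated and were not measured here, so a short run does not show that an mRNA lacks the tract. A relation between run length and the differences between groups was not tested.

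Levels per kilobase of principal transcript, as atlas means of CPM per kb, were highest for Rplp1, a protein of the ribosomal stalk, at 383.6, for Rps29 at 289.5 and for Rps15 at 271.6. They were lowest, among the members tested in the atlas, for Rps10 at 2.22, Rpl13a at 6.33 and Rps27l, a paralogue of Rps27, at 10.2. Rpl24 was at 0.136 CPM. Rps10, Rpl13a and Rpl24 each have 3 other annotated genes that match their coding sequence at an identity of at least 95%, and their counts are uncertain. Such copies were found for 76 of the 82 members, with a median of 5 per member and up to 56 for Rpl21. How reads that fit several copies were counted is not given in the sources used here, so the level of any member can hold, or lack, reads of its copies.

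The members took a larger share of the counts in calorimetry males than in any other group of libraries. Their share of all counts was 1.70% ± 0.257 (SD, n = 31) in calorimetry males and ran from 1.24% to 2.22%. It was 0.807% ± 0.101 (n = 32) in calorimetry females, 0.598% ± 0.0870 (n = 32) in running wheel females and 0.771% ± 0.0812 (n = 31) in running wheel males. The highest library outside calorimetry males was at 1.04%, so the calorimetry males did not overlap the rest. In the atlas, which is a separate table, the share was 0.750% ± 0.0635 (n = 92). In bulk tissue fewer cells of a type and less RNA per cell cannot be told apart.

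**Figure D1:**
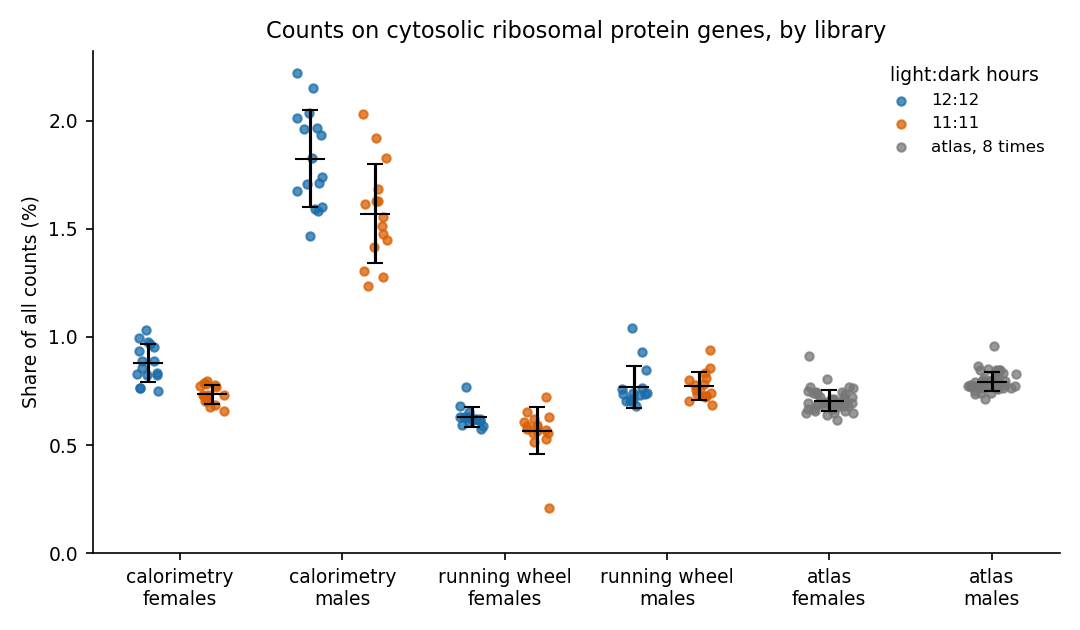
Share of all counts on the 82 ribosomal protein genes (percent, vertical axis) in each library, by set, sex and light cycle at ZT6 and by sex in the atlas. Points are libraries, bars are mean and SD. Calorimetry males lie between 1.24% and 2.22% and all other ZT6 libraries at or under 1.04%.

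Rps14, a small subunit protein of the platform, had the largest difference. Its level was 362.4 CPM at the lowest, 630.8 at the median and 1068 at the highest in calorimetry males. In running wheel males the same values were 128.5, 145.9 and 241.3, in calorimetry females 127.6, 155.4 and 224.0, and in running wheel females 76.0, 135.5 and 200.3. Every calorimetry male was above every other library. Counting all tested members, 43 of 79 were separated in this way, against 0.637% of all tested genes.

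Between calorimetry and running wheel males, edgeR's quasi-likelihood test with Benjamini-Hochberg adjustment over all 18841 genes put 77 of 79 members higher and 0 lower, where 29.4% of all genes were called higher. The median member difference was 1.15 on the log2 scale, a fold of 2.22, and the median of all genes was -0.03. Rps14 was higher by 2.09 ± 0.06 (SE; adjusted p = 6.82e-51), Rpl22l1, a paralogue of Rpl22, by 1.99 ± 0.09, Rpl9 by 1.92 ± 0.06, Rps27a, which is made as a fusion with ubiquitin, by 1.87 ± 0.06 and Rps3, a protein of the mRNA entry site, by 1.81 ± 0.06. The smallest called rises were those of Rpl7l1, a nucleolar paralogue of Rpl7, at 0.27 ± 0.03, Rps26 at 0.36 ± 0.05, Rpl21 at 0.53 ± 0.04 and Rpl29 at 0.53 ± 0.04. Rpl24 and Rps10, both of very low counts, were not past the threshold. Members of the small subunit had a median of 1.29 and those of the large subunit 1.03. The SD between members was 0.41 on the log2 scale here, 0.38 for the same comparison in females, 0.14 for the light cycle in calorimetry and 0.06 for the sexes of the atlas.

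Among females the set difference was smaller and fell on other members. Calorimetry females were above running wheel females in 68 members (22.9% of all genes) and below them in 2 (20.6% of all genes), with a median of 0.39. The largest rises were in Rps28 (1.61 ± 0.05, adjusted p = 2.77e-55), Rps29 (1.46 ± 0.05), Rpl13a (1.35 ± 0.08), Rpl39 (1.29 ± 0.06) and Rps27 (1.12 ± 0.05). Here and in the comparisons that follow, Rpl13a is of uncertain counts, with a mean of 5.88 CPM at ZT6. The 2 members that fell were Rps2 (-0.16 ± 0.04) and Rplp0, the scaffold of the stalk (-0.15 ± 0.04). Rps28 was at 15.0, 20.1 and 25.2 CPM (lowest, median, highest) in running wheel females and at 49.9, 59.2 and 82.6 in calorimetry females. It was at 41, 53.8 and 82.7 in running wheel males and 87.2, 122.4 and 155.2 in calorimetry males. Running wheel females lay below every library of the other 3 groups for Rps28, and calorimetry females overlapped running wheel males. Of the markers compared between these females, 3 of 5 for blood were higher in calorimetry, 0 of 5 for choroid plexus and 0 of 5 for striatum were called, and their part was not tested.

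Over both sexes 78 of 79 members were higher in calorimetry (29.3% of all genes), with a median of 0.84 and the largest differences in Rpl41 (1.42 ± 0.04), Rpl13a (1.39 ± 0.05) and Rps28 (1.37 ± 0.03). The set difference itself differed between sexes. In that interaction 70 members had a larger difference in males (22.7% of all genes) and 2 a smaller one (29.1% of all genes), with a median of 0.69. Rps14 had the largest excess in males at 1.84 ± 0.09 and Rps3 followed at 1.67 ± 0.08. Rps29 (-0.64 ± 0.07) and Rps28 (-0.48 ± 0.06) were the 2 with the larger difference in females. The fits by sex and this interaction were added after the data were seen.

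Males exceeded females at ZT6 in 78 of 79 members (27.6% of all genes), with a median of 0.74. Rpl13a, of uncertain counts (1.29 ± 0.05), Rpl41 (1.27 ± 0.04) and Rps28 (1.22 ± 0.03) led, and Rpl7l1 had the smallest called difference (0.20 ± 0.02). Of the markers, 4 of 5 for blood were higher in males (Hba-a2 by 1.20 ± 0.07), as were 3 of 5 for oligodendrocytes, with 1 lower, and 4 of 5 for striatum were lower (Drd2 at -0.98 ± 0.27). Tyrobp, a microglial marker, was higher by 0.75 ± 0.04, with 2 of the 5 microglial markers lower, and Mir6236, which collects ribosomal RNA reads, was higher by 1.02 ± 0.21. Their part in the sex difference at ZT6 was not tested. Within calorimetry, 78 members were higher in males (29% of all genes, median 1.03), again with Rps14 (2.01 ± 0.06), Rps3 (1.73 ± 0.05) and Rpl9 (1.73 ± 0.06) in front. Within running wheel mice, 59 were higher in males (17.9% of all genes) and 3 lower (15.9% of all genes), with a median of 0.30. There Rps28 (1.46 ± 0.05), Rps29 (1.31 ± 0.05), Rpl13a (1.25 ± 0.08), Rpl39 (1.07 ± 0.06) and Rpl41 (0.94 ± 0.06) rose most, and Rplp0 (-0.14 ± 0.04), Rps2 (-0.12 ± 0.04) and Rpl3 (-0.10 ± 0.03) fell. The comparisons of sex and of set share libraries, so the recurrence of a gene in them is not independent.

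**Figure D2:**
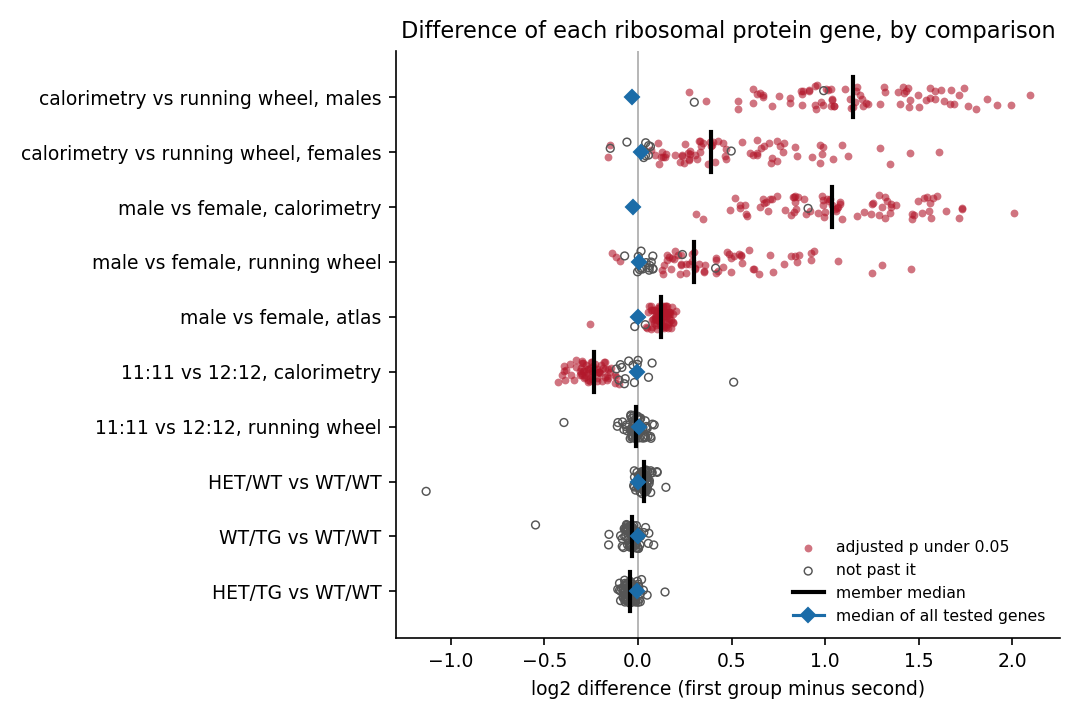
Log2 difference of each tested member (points) in 10 comparisons, filled where the adjusted p was under 0.05. Black bars are member medians and blue diamonds medians of all tested genes. Members are spread widely to the right in the comparisons of set and sex at ZT6, lie to the left in the light cycle comparison in calorimetry, and sit near 0 in the genotype comparisons.

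Other features of these libraries also differed between the groups. In calorimetry males the counts on ribosomal RNA and genes that collect its reads took 2.85% ± 2.38 (median 2.20%). They took 0.440% ± 0.275 (median 0.368%) in calorimetry females and 0.280% ± 0.206 (median 0.181%) in running wheel males. In running wheel females, which had the lowest member share, they took 2.22% ± 7.91 (median 0.698%), with the highest library at 45.5%. The groups were therefore not in the same order as for the member share. All 4 blood markers that passed the test between calorimetry and running wheel males, of 5 listed, were higher there, and their summed level ran from 109.5 to 376.4 CPM in calorimetry males and from 63.3 to 174.3 in running wheel males. Of the oligodendrocyte markers 4 of 5 were higher, with sums of 3780 to 7525 CPM against 2143 to 3942. All 5 striatal markers and 4 of 5 choroid plexus markers were lower. Their part in the ribosomal protein difference was not tested.

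Length moved with the members. The length slope of a library is the slope, over the protein-coding genes that are not members, of log2 CPM (centred per gene) on log2 of the summed exon length. A negative slope means that short transcripts were relatively more counted in that library. It was -0.117 ± 0.0383 in calorimetry males, 0.0159 ± 0.0275 in calorimetry females, 0.0137 ± 0.0287 in running wheel males and 0.0845 ± 0.0223 in running wheel females. Calorimetry males had the highest member share and the lowest slope, and running wheel females the lowest share and the highest slope. The other two groups overlapped each other in both measures.

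**Figure D3:**
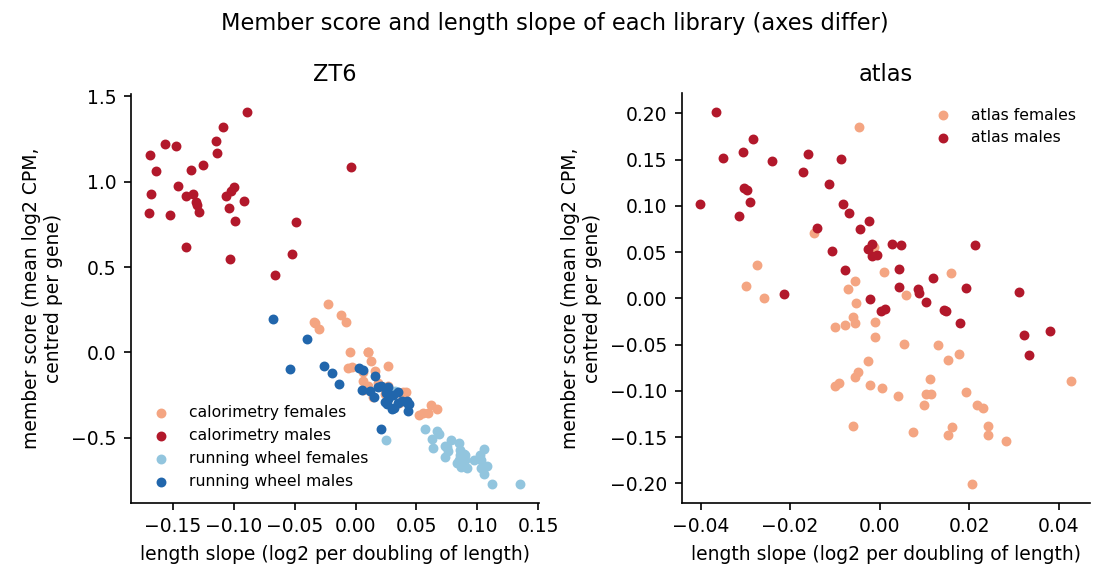
Member score of each library (mean over tested members of log2 CPM centred per gene) against its length slope (log2 per doubling of summed exon length), at ZT6 and in the atlas, on different axes. Libraries of more negative slope had higher scores, and the 31 calorimetry males stand apart at scores from 0.46 to 1.41.

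When genes were put in 10 equal bins of principal transcript length, the median difference of the other genes between calorimetry and running wheel males went from 0.39 in the shortest bin (up to 1160 bases) to -0.24 in the longest. The 66 members in the shortest bin had a median of 1.16. A smooth curve of the difference on length over non-members had a median of 0.44 at the members' lengths, and the members lay above it by a median of 0.74, with 77 of 79 above. With summed exon length the excess was 0.90. After adjustment for the length slope of each library 75 of 79 members were called higher, at a median of 0.85. The slope was -0.117 ± 0.0383 in calorimetry males and 0.0137 ± 0.0287 in running wheel males. This fit therefore cannot fully separate length from set.

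The females, and the sexes within the running wheel set, differed from this. Between running wheel males and females the curve had a median of 0.25 at the members' lengths and the members exceeded it by 0.09, with 51 above and 28 below. The members' differences fell with their own principal length there (Pearson's r = -0.51, Spearman's rho = -0.58, across 79 genes of the same libraries, which are not independent). Between calorimetry and running wheel females the same coefficients were -0.48 and -0.54. Between calorimetry and running wheel males they were -0.14 and -0.20. In the first of these the 5 largest rises were in Rps28 (271 bases), Rps29 (390), Rpl13a (1047), Rpl39 (612) and Rpl41 (437), and the 3 falls in Rplp0 (1358), Rps2 (998) and Rpl3 (1351). Annotated length did not order all members. Rps20, the longest by annotation at 3706 bases, rose by 0.61 ± 0.05, more than Rplp2 (421 bases, 0.42 ± 0.04). The coding sequence of Rps20 has 360 bases with the stop codon, and which of its transcripts was counted was not measured. With the length slope as a covariate 39 members were called higher and 10 lower between running wheel males and females, in place of 59 and 3. The slope differed between these groups too, so this fit cannot fully separate length from sex.

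**Figure D4:**
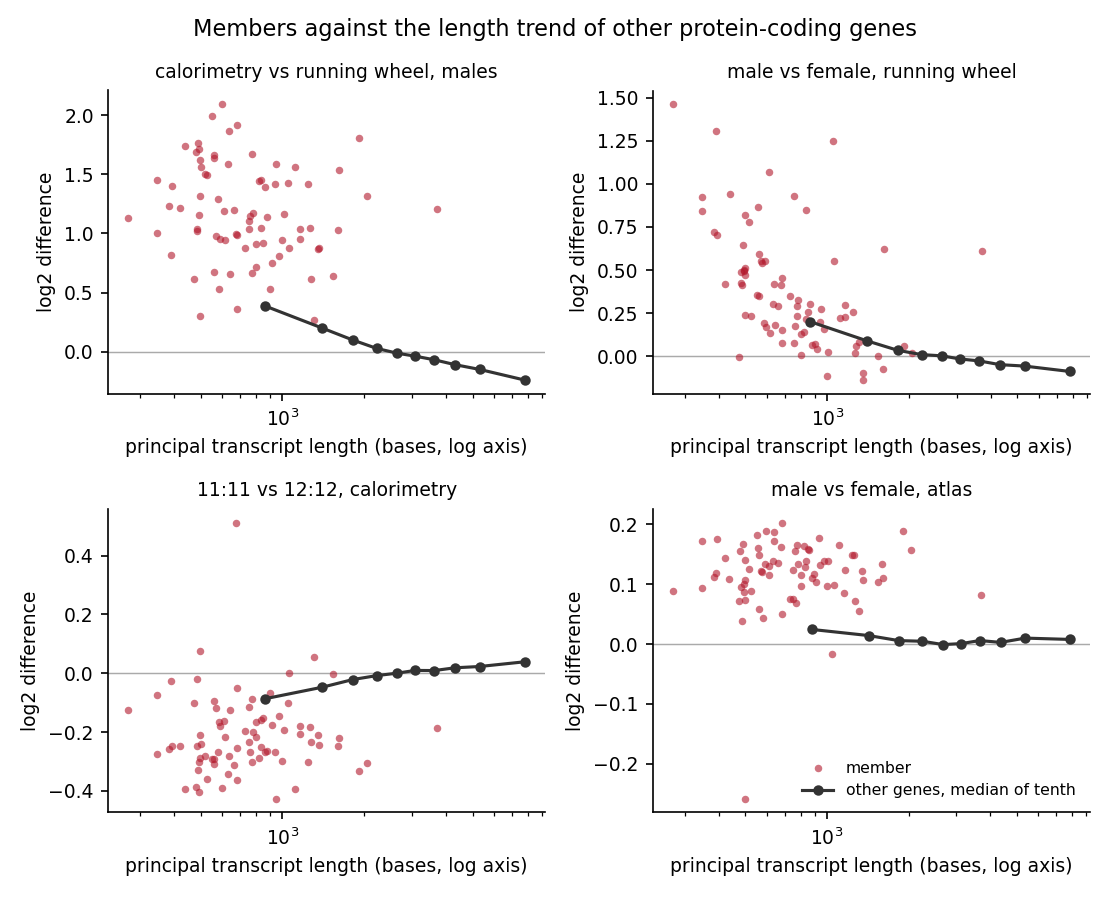
Log2 difference of each member (red) against its principal transcript length in bases (log axis), in 4 comparisons, with the median of other protein-coding genes in each of 10 length bins (black, placed at the median length of the bin). Members lie above the black line between calorimetry and running wheel males and in the atlas, below it in the light cycle comparison, and around it between running wheel males and females.

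The light cycle comparison asked whether entrainment to 11:11 changed these mRNAs, and they were lower on 11:11 in the calorimetry set. There 65 of 79 members fell and 0 rose (9.13% of all genes fell), with a median of -0.23, a fold of 0.850. Rpl35 fell by 0.43 ± 0.05 on the log2 scale (adjusted p = 4.73e-10), Rps12 by 0.40 ± 0.06, Rps16 by 0.40 ± 0.05, Rpl41 by 0.39 ± 0.06 and Rps14 by 0.39 ± 0.06. Rpl35 had a median of 70.5 CPM (56.0 to 98.0) on 12:12 and 54.7 (51.3 to 67.5) on 11:11 in calorimetry females. In calorimetry males it had 211.4 (151.8 to 327.9) on 12:12 and 153.7 (111.5 to 244.5) on 11:11. The light cycles overlapped in both sexes, as they did for every tested member in calorimetry females.

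Taken by sex, 68 members fell in calorimetry females (5.62% of all genes, median -0.27) and 47 in calorimetry males (6.33% of all genes, median -0.20). Without the libraries of replicate number 2 the count in females was 29, and without those of number 3 the count in males was 11. Rpl38 was an exception in males, with a mean of 122.2 ± 12.6 CPM (n = 16) on 12:12 and 126.0 ± 26.2 (n = 15) on 11:11. The light cycle difference differed between males and females, over both sets, in 2 of 79 members. They were Rpl13 (0.18 ± 0.06, adjusted p = 0.0332) and Rpl4 (0.14 ± 0.04, adjusted p = 0.0341). Of all genes 2.63% had a higher difference in males, so the members' share was near that of the table as a whole. The count of members was 0 without replicate number 1, 2 or 4 and 14 without number 3.

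In the running wheel set no member was called between the light cycles by edgeR or by DESeq2, and 0.069% of all genes were called. An unadjusted p under 0.05 was found for 2 members and for 1405 of all 18841 genes. The median was -0.01. The 2 smallest p-values belonged to Rps4x (-0.08 ± 0.03, adjusted p = 0.617) and Rps10 (-0.40 ± 0.19, adjusted p = 0.646). In females alone 0 were called (0.276% of all genes, median -0.07), with 9 members and 1886 of all genes at an unadjusted p under 0.05. In males alone 0 were called (0% of all genes, median 0.04), with 0 members and 749 of all genes at that p. DESeq2 called 0 members in each. The smallest p-values in females belonged to Rpl13 (-0.13 ± 0.05, adjusted p = 0.363) and Rplp0 (-0.12 ± 0.05). In males Rpl14 was at 0.10 ± 0.06 (adjusted p = 0.998).

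The light cycle difference was larger in calorimetry than in running wheel mice in 48 members (2.58% of all genes had a lower interaction), with a median of -0.22. Rps16 led at -0.44 ± 0.07 (adjusted p = 3.28e-05), followed by Rpl35 (-0.40 ± 0.07) and Rpl41 (-0.39 ± 0.09). That count was 7 without replicate number 2, 28 without number 3 and 23 without number 4. Over both sets together 56 members fell and 0 rose (5.15% of all genes fell, median -0.12), led by Rps14 (-0.25 ± 0.04), Rpl35 (-0.23 ± 0.04) and Rps12 (-0.21 ± 0.04), and 49 fell without the calorimetry males.

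The length slope moved with the light cycle in the same set. Averaged over sex and genotype it was higher on 11:11 by 0.0311 in calorimetry mice (p = 0.00012, 2-sided permutation test of the labels within sex and genotype, 31 against 32 libraries) and by 0.0026 in running wheel mice (p = 0.683). The other genes of the shortest length bin had a median light cycle difference of -0.09 in calorimetry, and the 66 members of that bin had -0.24. Members lay below the length curve by a median of 0.13 (64 of 79 below it), and their differences did not follow their own length (r = 0.02, rho = 0.08, across 79 genes). With the slope as a covariate 52 members were called lower in calorimetry and 30 in calorimetry females, 35 over both sets, and 21 in the interaction with set. The slope differed between the light cycles, so these fits cannot fully separate length from light cycle. Blood markers moved too: 3 of 5 fell, among them Hbb-bs (-0.61 ± 0.09). Their part in the difference was not tested.

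Genotype left no member past the threshold. By edgeR's test 0 members were called for HET/WT against WT/WT (0.0425% of all genes, median 0.03), for WT/TG (0.0159%, median -0.03) and for HET/TG (0.0478%, median -0.04). Members with an unadjusted p under 0.05 numbered 3, 0 and 5, against 1206, 803 and 1144 of all 18841 genes. DESeq2 and limma-voom called 0 members in each. The smallest p-values for HET/WT belonged to Rpl24 (-1.13 ± 0.42, adjusted p = 0.661), which has a mean of 0.162 CPM, and Rpl7l1 (0.08 ± 0.03, adjusted p = 0.725). For WT/TG they belonged to Rps27l (-0.15 ± 0.09) and Rpl22l1 (-0.16 ± 0.09), and for HET/TG to Rpl29 (-0.11 ± 0.04) and Rplp0 (-0.09 ± 0.04). The median SE of a member was 0.04 in these comparisons. The mean share of counts was 0.986% ± 0.483 in WT/WT, 0.987% ± 0.436 in HET/WT, 0.931% ± 0.445 in WT/TG and 0.955% ± 0.472 in HET/TG (SD over both sets and sexes), and their length slopes averaged 0.0016 ± 0.0789, -0.0103 ± 0.0782, 0.0043 ± 0.0803 and 0.0047 ± 0.0808.

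Without the HET/WT library whose Snhg14 went against its label, or without the library richest in ribosomal RNA, the genotype counts were again 0. The members lower on 11:11 in calorimetry then numbered 64 and 65, and those of the interaction with set 49 in both cases.

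HET/TG against HET/WT, which compares mice with the deletion that carry or lack the transgene, also gave 0 members (0.0106% of all genes). Of the 79 members 29 had an unadjusted p under 0.05, against 1319 of all 18841 genes. The median was -0.07 and 78 of 79 were negative. The members varied together within groups, so these are not 79 independent observations. Rpl7 (-0.09 ± 0.03, adjusted p = 0.617) and Rps4x (-0.10 ± 0.03, adjusted p = 0.617) had the smallest p. Without the calorimetry males 12 members were called, all lower. The share of all genes called in that fit is not given here, so this count has no background beside it. With the length slope as a covariate the median was -0.03 and no member was called.

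Across the day the members changed little in size. A rhythm of 24 h was called in 32 of 78 members, or in 41.4% of all genes, so the members' share was near that of the table as a whole. The median fitted peak-to-trough difference was 0.07 on the log2 scale, a fold of 1.05, against 0.14 over all genes tested. Of the 32 called members 30 peaked between 0.929 and 6.84 h after lights on, with a median of 4.68 h. The exceptions were Rpl7l1 and Rpl13a. Rpl7l1 had the largest peak-to-trough difference of all members (0.17 ± 0.03, adjusted p = 1.05e-06) and peaked at 19.1 ± 0.58 h. Rpl13a, of uncertain counts, was at 0.17 ± 0.04 and peaked at 23.5 ± 1.02 h. Rps26 (0.14 ± 0.03, peak at 1.82 h), Rpl22l1 (0.13 ± 0.05, 5.03 h) and Rps2 (0.13 ± 0.03, 3.42 h) followed. Rpl7l1 was at a mean of 30.4 ± 1.20 CPM at ZT18 (n = 10) and 26.5 ± 1.75 at ZT6 (n = 12). The number of rhythmic members was 11, 21 and 14 without replicate number 1, 5 or 6, was 9 with time as a factor, and fell to 10 when the length slope entered the model. Markers of cell types varied over the same libraries: a rhythm was called in all 5 astrocyte, all 5 microglial and all 4 endothelial markers, among them Cldn5 (0.60 ± 0.06, adjusted p = 5.26e-12), and in 3 of 5 choroid plexus markers, among them Kl (1.78 ± 0.48), and in 0 of 5 blood and 0 of 5 striatal markers. Their part in the members' rhythm was not tested. The rhythm differed between sexes in 0 members (0.0756% of all genes, 0 members by DESeq2), with Rps10 at an adjusted p of 0.249 and Rpl13a at 0.697. An unadjusted p under 0.05 was found for 1 member and for 1334 of all 17193 genes.

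**Figure D5:**
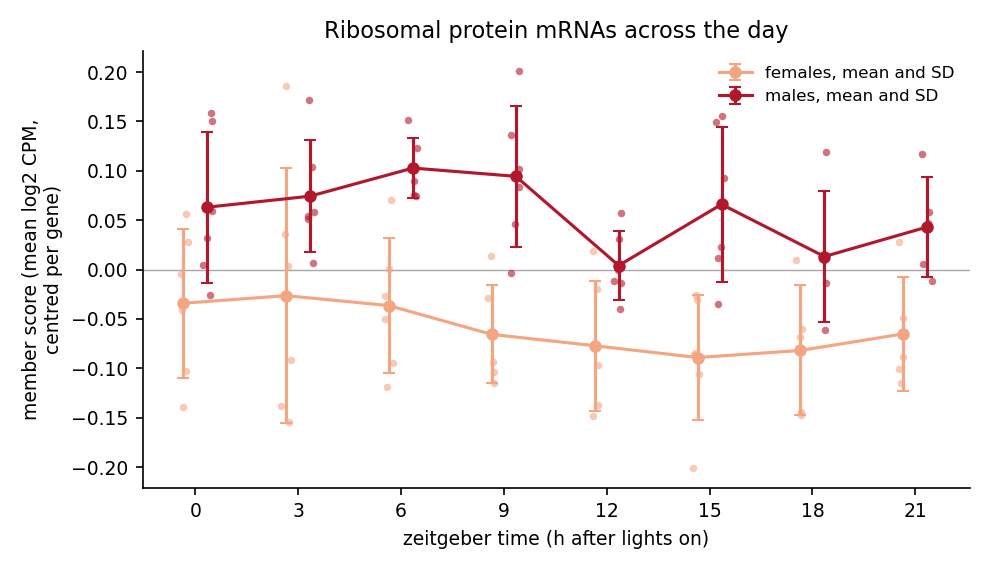
Member score of each atlas library (mean log2 CPM of tested members, centred per gene) against zeitgeber time in hours after lights on, by sex. Points are libraries, and larger points with bars are means and SD of 5 or 6 libraries. Male means lie above female means at all 8 times.

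Males exceeded females in the atlas as well, by much less than in the calorimetry set. There 75 of 78 members were higher in males (21% of all genes) and 1 lower (20.1% of all genes), with a median of 0.12, a fold of 1.09. Rpl9 (0.20 ± 0.02, adjusted p = 1.23e-12), Rps3 (0.19 ± 0.02), Rps14 (0.19 ± 0.02), Rps27a (0.19 ± 0.02) and Rpl22l1 (0.18 ± 0.03) led, and these 5 are the members named above with the largest set difference in males. Rps10, at 1.11 CPM, was the member called lower (-0.26 ± 0.10). Rps3 was at 144.2, 156.9 and 190.4 CPM (lowest, median, highest) in males and at 122.1, 139.0 and 165.8 in females, and the sexes overlapped. The length curve had a median of 0.02 at the members' lengths, the members lay above it by 0.10, and 76 of 78 were above. With the slope as a covariate 73 were called higher. All 5 blood markers were higher and all 5 striatal markers lower in males, with summed striatal levels of 61.8 to 799 CPM over the atlas. Their part in the sex difference was not tested.

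The members also followed the length slope within groups. In a fit with every group's mean removed, 57 of 79 members at ZT6 were lower in libraries of higher slope (15.6% of all genes lower), with a median of -0.17 per SD of the slope. In the atlas 74 of 78 were lower (7.1% of all genes lower), with a median of -0.05. Short genes are lower at a higher slope by its definition. In the shortest bin of principal length 37.3% of other genes at ZT6 and 24% in the atlas were lower, and 49 and 63 of the 66 members there. The SD of the slope was 0.0788 at ZT6 and 0.0179 in the atlas. At ZT6 Rpl36 (-0.37 ± 0.05), Rps14 (-0.36 ± 0.06) and Rpl41 (-0.32 ± 0.06) had the steepest relation. In the atlas it was Rpl17 (-0.08 ± 0.01), Rpl36a (-0.07 ± 0.01) and Rpl36 (-0.07 ± 0.01). The ZT6 count was 32 without replicate number 1. The members lay below the length curve of this coefficient in both tables, by a median of 0.03 at ZT6 and 0.02 in the atlas with principal length.

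Within groups the members varied together. After each group's mean was removed, the correlation of a member with the mean of the other members had a median of 0.760 over 92 atlas libraries and 0.776 over 126 ZT6 libraries, and it passed 0.5 in 72 of 78 and 73 of 79 members. Among 9723 other genes the median was -0.0077 and -0.0585, and 1.3% and 3.23% passed 0.5. These values share depth and length slope across genes and are descriptions. The members that followed the rest least were Rps10 (-0.09 in the atlas, -0.04 at ZT6), Rpl7l1 (0.27 and 0.14) and Rps27l in the atlas (0.27). Among genes outside the rule the closest were Rps3a1, a small subunit protein that the symbol rule misses, at 0.86 and 0.87. Eef1a1, the elongation factor, followed in the atlas (0.80), and Cox4i1, a subunit of cytochrome c oxidase, and Pfdn5, a subunit of the chaperone prefoldin, at ZT6 (0.85 each). This ranking was added after the data were seen.

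Of the 5 ribosomal proteins or ribosome-bound proteins that the symbol rule leaves out, 4 rose in calorimetry males against running wheel males and 0 fell. Rps3a1 rose by 1.19 ± 0.04, Fau, which encodes Rps30 as a fusion, by 1.15 ± 0.05, and Rack1, the signalling scaffold on the small subunit, by 1.00 ± 0.03. Rpl36al was at 0.18 ± 0.27. In calorimetry on 11:11, Fau (-0.27 ± 0.04), Rack1 (-0.24 ± 0.03) and Rps3a1 (-0.22 ± 0.04) fell, and Rpl36al was not called.

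The other lists were less uniform. Beside their counts, 29.4% of all genes were higher in calorimetry than in running wheel males, and 9.13% fell on 11:11 in calorimetry. Of 21 TOP mRNAs other than ribosomal proteins, mostly translation factors, 19 were higher and 0 lower in calorimetry than in running wheel males (median 0.56), with Eif3h at 0.92 ± 0.03, Eef1a1 at 0.77 ± 0.03 and Eef1b2 at 1.46 ± 0.06. On 11:11 in calorimetry 6 of the 21 fell and 0 rose (median -0.05), among them Eif3m (-0.19 ± 0.03) and Tpt1 (-0.18 ± 0.04). Of 77 tested mitochondrial ribosomal proteins, which serve the other ribosome of the cell, 68 were higher and 2 lower in calorimetry males (median 0.38, median principal transcript 1280 bases), and 24 fell and 0 rose on 11:11 (median -0.05). Mrpl14 rose by 1.11 ± 0.05, and Mrpl57 fell by 0.37 ± 0.04 on 11:11.

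Ribosome assembly factors went both ways, as did the genes as a whole. Of all 18841 genes, 12239 were called between calorimetry and running wheel males, 5542 of them higher. For 11:11 in calorimetry 3684 were called, 1720 of them lower. Of 31 assembly factors, 11 were higher and 12 lower in calorimetry males (median -0.02), with Nop10 at 0.73 ± 0.05 and Mrto4 at 0.54 ± 0.04. On 11:11 in calorimetry 5 rose and 5 fell, with Ncl, nucleolin, at 0.19 ± 0.03 and Nop10 at -0.25 ± 0.05. Of 9 RNA polymerase I genes, whose enzyme makes the large ribosomal RNAs, 3 were higher (Polr1d at 0.70 ± 0.04) and 5 lower (Polr1a at -0.34 ± 0.03). Of 14 genes that control the translation of TOP mRNAs, 4 were higher and 9 lower, with Mtor itself at -0.30 ± 0.03 and Akt1 at 0.37 ± 0.03, and 3 rose on 11:11 in calorimetry, among them Larp1 (0.07 ± 0.02). In the running wheel set 0 genes of these 5 lists were called between the light cycles.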

How the data were processed

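Raw read counts per gene were deposited as 2 tables of whole numbers with 55487 identifiers, of which 55227 were found in GENCODE mouse release 21. STAR, Trim Galore, SAMtools and limma, with the mm10 build, are named in the submitters' processing notes. For versions, the counting tool, its strand setting and its handling of multiply mapped reads, the sources used here give nothing. All 92 and 126 columns matched a sample by name, and 1 labelled running wheel male (12:12, WT/TG) was not analysed here.

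Each table was fitted in R 4.3.3 with edgeR 4.0.16 (filterByExpr, TMM, robust quasi-likelihood), Benjamini-Hochberg adjustment over all 18841 genes at ZT6 or 17193 in the atlas, and a threshold of 0.05. ZT6 contrasts average 32 group means with equal weight. The atlas model has sex and a cosine and sine of 24 h. Errors are SE, or SD where n is given. Levels are CPM. Log2 CPM for scores and slopes used a prior count of 2, and length curves were lowess fits with a span of 0.3. DESeq2 1.42.0 and limma 3.58.1 were alternatives. The fits and the slope were tested on simulated data. Annotated copies were found with blastn at 95% identity over 90% of the coding sequence.

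Members and lists were chosen with earlier results of these data known. Genes are named by a rule: the 5 largest rises and falls among members past the threshold in each comparison, shortened here, the 6 largest rhythms, the 2 smallest p where none passed, the 3 highest and lowest levels per kb, the paralogues, the 5 ribosomal genes outside the symbol rule, and up to 3 genes per other list. Rpl38 and the genes named for covariation, length or start sequence fall outside it and were picked with their values in view. A few genes that the rule selects are not reported here.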

Additional observations from a re-analysis of the deposited data

Results flagged for a closer look

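The interaction of set and sex was past the threshold in 72 members. The calorimetry excess was larger in males in 70 (22.7% of all genes) and smaller in 2 (29.1% of all genes). The interaction of light cycle and set was past it in 48 members (2.58% of all genes were lower). All 48 had a lower log2 difference of 11:11 against 12:12 in calorimetry than in running wheel mice. The interaction of light cycle and sex was past it in 2 members, near the share of all genes (2.63% were higher).

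Single libraries far from the others of their group were found in 7 of 92 tests, where chance gives about 1 in 20. The tests covered the member score and the length slope in each group of 4 to 6 libraries. For the member score they were a calorimetry female on 11:11 of genotype HET/TG (replicate 3, -0.20), a calorimetry female on 12:12 of genotype HET/WT (replicate 1, -0.11), a running wheel female on 11:11 of genotype HET/TG (replicate 2, -0.51), a running wheel male on 11:11 of genotype HET/TG (replicate 2, 0.0774) and a running wheel male on 12:12 of genotype WT/WT (replicate 4, -0.0937). For the length slope they were the same calorimetry female on 12:12 of genotype HET/WT (0.0063) and an atlas male at ZT12 (replicate 2, 0.0322).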

How the results depend on the processing

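Without the expression filter the members called numbered 15 for light cycle by sex, 1 for WT/TG, 5 for HET/TG against HET/WT, 3 for the light cycle in running wheel females and 19 for the rhythm. With the length slope as a covariate they numbered 35 for the light cycle over both sets, 21 for its interaction with set, 1 for that with sex, 30 in calorimetry females and 10 for the rhythm, and with the replicate block added 36, 21, 1, 30 and 9. Time as a factor gave 9 rhythmic members. Without calorimetry males, an alternative added after the data were seen, 12 members were called for HET/TG against HET/WT. Shares of all genes in these alternative fits are not given here, so the counts have no background beside them.

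Leaving out each replicate number in turn gave 7 to 49 members for light cycle by set, 0 to 14 for light cycle by sex, 29 to 71 and 11 to 49 for the light cycle in calorimetry females and males, 32 to 71 for the length slope at ZT6 and 11 to 32 for the rhythm. The light cycle difference of the length slope ran from 0.0218 to 0.0357 in calorimetry mice, and from -0.0012 (without replicate 1, permutation p = 0.873) to 0.0077 in running wheel mice. The causes of these changes were not tested. The other counts of members, over DESeq2, limma-voom, RLE scaling, scaling without ribosomal genes and the left-out libraries, stayed within 1.5 times their value. Replicate numbers are shared across groups but did not pair the libraries (mean correlation of same-numbered libraries 0.0052 in the atlas and 0.0082 at ZT6). With the replicate block, counts were 65 for the light cycle in calorimetry, 48 for its interaction with set, 77 for the set and 29 for the rhythm. Depth limits the members of the lowest counts, such as Rpl24 and Rps10.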
